A study of Rattus norvegicus with 48 samples.

Results

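The miRNAs rno-miR-149-5p and rno-miR-138-5p, written miR-149-5p and miR-138-5p below, are 2 of the 188 mature miRNAs in a small RNA sequencing table of the rat nephron. They were chosen by their deposited values across 4 kidney regions, which stood higher in the glomerulus than in the tubule segments. What sets the glomerulus apart for them is therefore a description, with no test. Small RNA was read from 11 laser-captured libraries: 2 of glomerulus (rats 1 and 3), and 3 each of proximal tubule, thick ascending limb of Henle's loop (TAL) and collecting duct (CD) from rats 1 to 3. All rats were untreated male Sprague-Dawley animals aged 6 months, and 1 library is 1 segment of 1 rat. Tubules were recognised on 8 µm frozen sections by antibody fluorescence (the antigens were aquaporin-2 in the CD, Tamm-Horsfall protein in the TAL and glutathione-S-transferase in the proximal tubule), whereas glomeruli were recognised by a histochemical stain. The kind of staining and the segment therefore cannot be told apart in any rat. A glomerulus library that the submitters themselves set aside, with rat 3 as its label, is not analysed here. For rat 2 there is no glomerulus library in the comparison. With rat 3 as the label of both that library and the one kept, the rat of the kept library was taken as labelled, and whether it is right was not tested. Ratios within rat 3 and differences with the rat as a block rest on it.

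A miRNA guides Argonaute proteins to messenger RNAs that pair with its seed, the bases next to its 5′ end, and the target is then repressed. The glomerulus is the capillary tuft that filters blood into the nephron, built of endothelial cells, mesangial cells and podocytes, while the tubule segments are epithelia that reclaim or secrete solutes. miR-138-5p is best known from neurons, where it acts in dendritic spines, and miR-149-5p has been studied mostly in tumour cells. Neither was chosen here for a known role in the glomerulus.

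The mature sequences are shown because the seed is what sets one miRNA's targets apart from another's. They are from RefSeq on the assembly GRCr8, written 5′ to 3′ with the seed (bases 2 to 8) in capitals.
miR-149-5p: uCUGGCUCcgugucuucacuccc
miR-138-5p: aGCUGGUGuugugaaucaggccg
miR-149-5p comes from 1 locus, Mir149, at chr9:100861814-100861836 on the plus strand. In the RefSeq gene table Mir149 lies within the span of the protein-coding gene Gpc1, which encodes the heparan sulfate proteoglycan glypican-1.
miR-138-5p comes from 2 loci with the same mature sequence, so its reads cannot be assigned to one of them. Mir138-1 holds it at chr8:131178456-131178478 on the plus strand, within the spans of the long non-coding RNA genes LOC103690480 and LOC102550701, on opposite strands. Mir138-2 holds it at chr19:10680184-10680206 on the minus strand, within the span of Slc12a3 on the same strand. Slc12a3 encodes the thiazide-sensitive sodium chloride cotransporter of the distal convoluted tubule, a segment that was not captured.

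The hairpins of both miR-138 loci show how the same mature arm sits in different precursors. Here the mature sequence is in capitals.
Mir138-1 hairpin: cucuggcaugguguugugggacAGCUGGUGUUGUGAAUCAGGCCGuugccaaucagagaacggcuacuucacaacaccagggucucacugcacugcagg
Mir138-2 hairpin: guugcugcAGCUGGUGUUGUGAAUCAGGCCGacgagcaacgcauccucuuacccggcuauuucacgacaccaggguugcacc
Mir149 hairpin: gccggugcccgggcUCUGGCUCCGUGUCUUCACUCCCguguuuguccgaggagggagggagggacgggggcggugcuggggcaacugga
The Mir138-1 hairpin is 99 bases long and holds the mature arm at bases 23 to 45, and the Mir138-2 hairpin is 82 bases long and holds it at bases 9 to 31. The Mir149 hairpin is 89 bases long and holds its 5p arm at bases 15 to 37. The opposite arms, miR-149-3p, miR-138-1-3p and miR-138-2-3p, were not among the 188 miRNAs, so that a 5p to 3p comparison was not made here.

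The members do not share a seed with each other or with any other miRNA of the table that could be compared. RefSeq names matched 172 of the 188 miRNAs, which gave 171 comparisons for each member. None of the 171 shared the whole seed or a run of 6 of its bases with either member. A run of 5 bases at the seed was shared by 1 of them, miR-24-3p with miR-149-5p. In miR-149-5p the run is the last 5 bases of the seed, so its position differs from that in miR-24-3p. The sequence of miR-24-3p is shown with those bases (2 to 6) in capitals.
miR-24-3p: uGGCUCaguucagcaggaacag
miR-24-3p, picked out after its values had been seen, stood at 98.7 and 74.2 in the glomerulus libraries of rats 1 and 3. Its tubule libraries ran from 23.0 in the proximal tubule of rat 1 to 73.7 in the CD of rat 3. The lowest glomerulus library was thus above the highest tubule library by a factor of 1.01.

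The values are TMM-normalized signals as deposited, and each library was read on 4 flow cells, A to D, whose mean is given. Judged by the spacing of the low values, the 188 miRNAs rest on 147996 reads in the rat 3 glomerulus library, the shallowest, and on 1296995 in the rat 3 TAL library, the deepest. The glomerulus library of rat 3 also had the lowest summed value, 77457. Some of the 188 names carried identical levels, such as let-7a-5p with miR-3596a and miR-210-3p with miR-3574. They were kept as separate entries in the read totals, ranks and shares. Flow cell D was the shallowest, with 15771 to 153111 reads in a run. All 88 member values of the 44 runs came out as whole reads within 0.03 reads. The zeros among them are whole at any spacing, so they do not bear on the estimate.

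rno-miR-149-5p was high in both glomerulus libraries and low in the tubule segments, among which the proximal tubule had the highest mean. In the glomerulus miR-149-5p stood at 149 in rat 1 and 73.7 in rat 3. In the proximal tubule it stood at 16.8 in rat 1, 4.65 in rat 2 and 22.2 in rat 3. Both glomerulus libraries were above every proximal tubule library, and the rat 2 library was the lowest of the proximal tubule. In the TAL it stood at 7.06 in rat 1, 0 in rat 2 and 3.05 in rat 3. In the CD it stood at 7.78 in rat 1, 0 in rat 2 and 6.11 in rat 3. These last 2 segments overlapped, and both had their rat 2 library at 0 in all 4 runs. The proximal tubule overlapped both, since its rat 2 library lay below the rat 1 libraries of TAL and CD and the rat 3 library of CD.

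**Figure D1:**
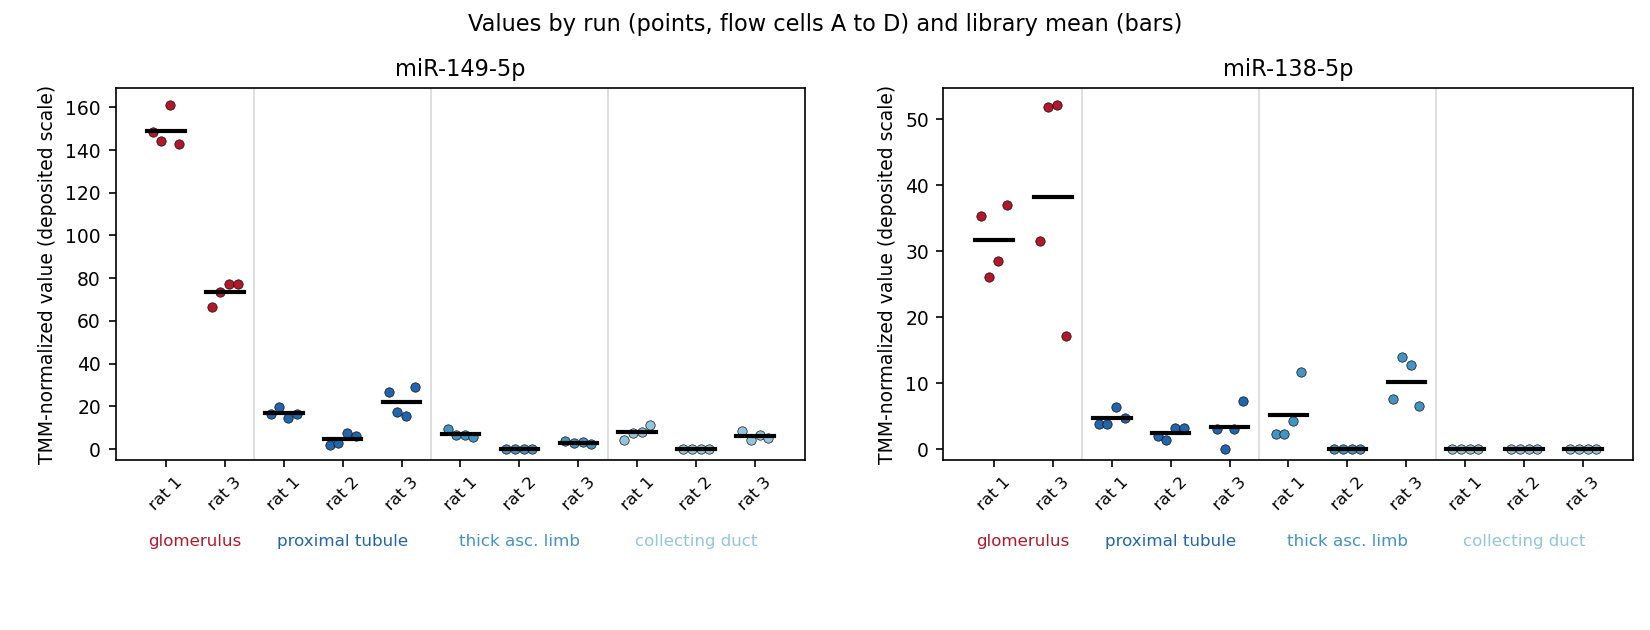
TMM-normalized value (y axis, deposited scale, linear) of miR-149-5p (left) and miR-138-5p (right) in each of the 11 libraries, ordered by segment and rat on the x axis; points are the 4 flow cell runs and bars their mean. Both glomerulus libraries lie above all 9 tubule libraries in either panel, miR-138-5p is at 0 in every CD run, and the rat 2 libraries of TAL and CD are at 0 in both panels.

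Averaged over rats, miR-149-5p had a value of 111 ± 53.3 in the glomerulus (SD, n = 2). It had 14.6 ± 8.99 in the proximal tubule, 3.37 ± 3.54 in the TAL and 4.63 ± 4.10 in the CD (SD, n = 3 each). The glomerulus held 83.2% of the sum of the 4 segment means and the proximal tubule 10.9%. The glomerulus mean was 7.65 times that of the proximal tubule, 33.0 times that of the TAL and 24.0 times that of the CD. Within rat 1 these ratios were 8.87, 21.1 and 19.2. Within rat 3 they were 3.32, 24.2 and 12.1, so the proximal tubule of rat 3 came nearest to its own glomerulus. Among the 188 miRNAs miR-149-5p ranked 52 by mean level in the glomerulus, 115 in the proximal tubule, 161 in the TAL and 152 in the CD.

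rno-miR-138-5p was lower than miR-149-5p in both glomerulus libraries and was not detected in the CD. In the glomerulus it stood at 31.7 in rat 1 and 38.2 in rat 3. In the proximal tubule it stood at 4.67 in rat 1, 2.42 in rat 2 and 3.34 in rat 3. Both glomerulus libraries were above every proximal tubule library. In the TAL it stood at 5.14 in rat 1, 0 in rat 2 and 10.2 in rat 3, a wider spread than in the proximal tubule and one that held all proximal tubule values. In the CD it was 0 in all 12 runs, with 0 of 2163978 reads.

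Averaged over rats, miR-138-5p had a value of 35.0 ± 4.57 in the glomerulus (SD, n = 2), 3.48 ± 1.13 in the proximal tubule and 5.12 ± 5.12 in the TAL (SD, n = 3 each). The floor of 3 reads over the CD libraries equals a value of 0.287. The glomerulus mean was 10.1 times that of the proximal tubule, 6.82 times that of the TAL and at least 122-fold higher than the CD floor. Within rat 1 the ratios to proximal tubule and TAL were 6.79 and 6.18, and within rat 3 they were 11.4 and 3.73. The glomerulus was at least 42.7-fold higher than the floor of its CD library in rat 1 and at least 42.6-fold higher in rat 3, with the floor per library. By level miR-138-5p ranked 75 in the glomerulus, 170 in the proximal tubule, 144 in the TAL and 181 in the CD. In bulk libraries such as these, fewer cells of a kind and less of the miRNA in each cell cannot be told apart.

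Few reads carried the low values. miR-149-5p had 732 reads in the rat 1 glomerulus and 137 in that of rat 3, against 61, 23 and 24 reads in the proximal tubule libraries of rats 1 to 3. It had 11, 0 and 24 reads in the TAL and 29, 0 and 21 in the CD. miR-138-5p had 150 and 78 reads in the glomerulus, 17, 12 and 3 in the proximal tubule and 6, 0 and 82 in the TAL. The 82 reads in the TAL of rat 3 came from the deepest library, and the 6 reads of rat 1 from the shallowest of that segment, with 218882 reads.

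Set against the library's own reads, the glomerulus libraries were alike for miR-149-5p and unlike for miR-138-5p, whereas on the TMM scale it was miR-138-5p that was alike in both. In RPM, the reads in every 1000000 reads of the 188 miRNAs, miR-149-5p stood at 906 in the glomerulus of rat 1 (95% exact Poisson interval 842 to 974) and 926 in that of rat 3 (777 to 1094). In the proximal tubule it had 112 (85.7 to 144) in rat 1, 25.2 (15.9 to 37.7) in rat 2 and 99.5 (63.7 to 148) in rat 3. The intervals of rats 1 and 3 in the proximal tubule overlapped, and that of rat 2 lay below both. miR-138-5p had 186 RPM (157 to 218) in the glomerulus of rat 1 and 527 (417 to 658) in that of rat 3. Its largest tubule level was 63.2 RPM (50.3 to 78.5) in the TAL of rat 3. In the TAL of rat 2, where neither miRNA had a read, 3 reads would equal 9.33 RPM, and in the CD libraries they would equal 3.80 to 4.75 RPM. Intervals and floors cover counting error only, since reads copied by PCR are not independent molecules.

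**Figure D2:**
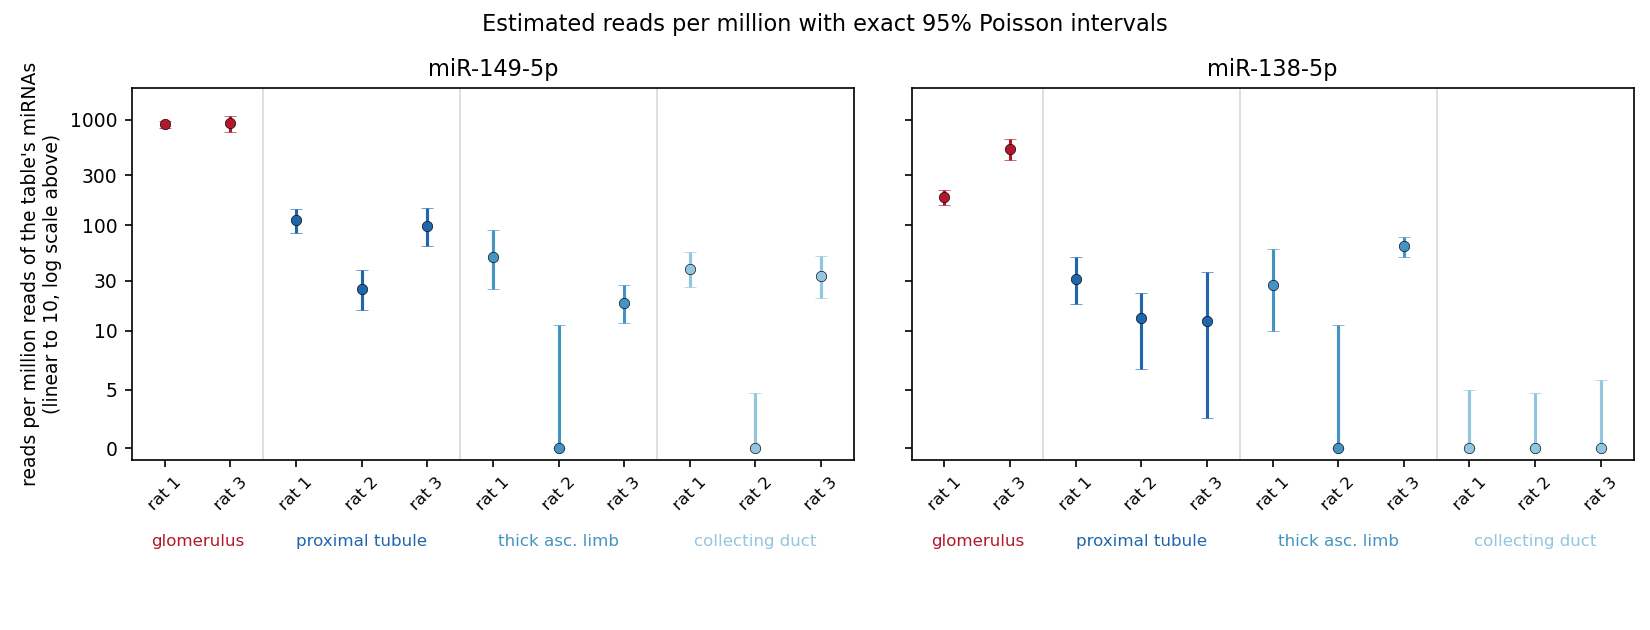
Estimated RPM over the 188 miRNAs (y axis, linear up to 10 and logarithmic above) for miR-149-5p (left) and miR-138-5p (right) in each library; bars are exact 95% Poisson intervals on the reads summed over 4 flow cells. The glomerulus points lie at 906 and 926 for miR-149-5p and at 186 and 527 for miR-138-5p, and no tubule interval reaches those of the glomerulus.

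The ratio of the miRNAs to each other varied from library to library. The value of miR-149-5p over that of miR-138-5p was 4.69 in the glomerulus of rat 1 and 1.93 in that of rat 3. It was 3.60, 1.92 and 6.64 in the proximal tubule of rats 1 to 3, which held both glomerulus ratios within their range. In the TAL it was 1.37 in rat 1 and 0.298 in rat 3, the 1 library in which miR-138-5p was the higher of the pair. The flow cells of a glomerulus library differed little for miR-149-5p, with an SD over 4 runs of 8.28 in rat 1 and 5.01 in rat 3. For miR-138-5p the SD over runs was 5.24 in rat 1 and 17.0 in rat 3, where the run on flow cell D read 17.2 from 4 reads and that on flow cell C 52.1 from 27 reads.

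**Figure D3:**
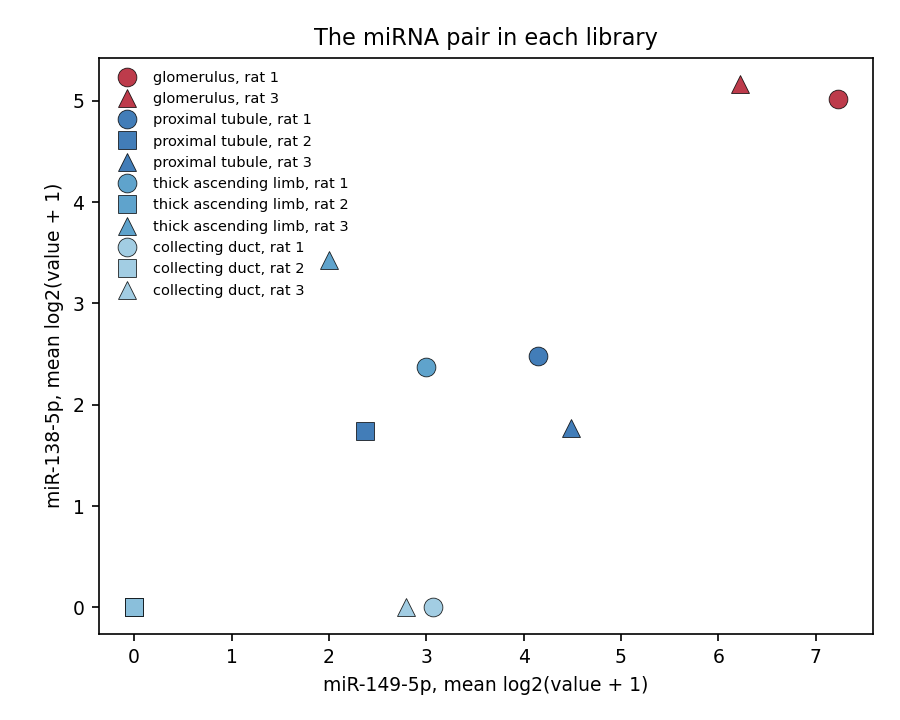
Mean log2(value + 1) of miR-149-5p (x axis) against miR-138-5p (y axis), 1 point per library, with colour for segment and shape for rat. The glomerulus libraries stand alone at the upper right, the CD libraries lie along the bottom at 0 for miR-138-5p, and the rat 2 libraries of TAL and CD fall on each other at 0 for both.

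On the scale of log2(value + 1), the difference of glomerulus minus the mean of the 3 tubule segments was the largest of the 188 miRNAs for miR-149-5p and the next for miR-138-5p. With the rat as a block, it was 3.48 ± 0.96 (SE) for miR-149-5p, 11.1-fold, and 3.42 ± 1.08 for miR-138-5p, 10.7-fold, in a fit of 11 libraries. The estimate itself draws on rats 1 and 3, since leaving out rat 2 left both differences as they were. Without the block, which takes no account of the rat labels, the differences were 4.30 for miR-149-5p and 3.78 for miR-138-5p. With a pseudocount of 5 they were 2.97 and 2.25. The SE describes the fit and supports no test, since these differences chose the pair. It rests on a variance shared by miRNAs of like abundance, not on each member's own spread. The members' own residual SDs on the log2 scale were 0.44 for miR-149-5p and 0.90 for miR-138-5p. The folds come from means of log2(value + 1), so they are not the ratios of the mean values. Just outside the pair came miR-338-3p at 3.18, with 15.9 and 21.2 in the glomerulus of rats 1 and 3 and 0 to 9.62 in the tubules. The median over all 188 was −0.56, and dividing each library by its total moved it to −0.08, where the members stood at 4.08 and 3.96. Relative to that median the members stood 4.03 and 3.98 higher as deposited and 4.16 and 4.04 higher after equal totals. Without the glomerulus library of rat 1 the differences were 3.13 for miR-149-5p and 3.44 for miR-138-5p, and without that of rat 3 they were 3.82 and 3.40.

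**Figure D4:**
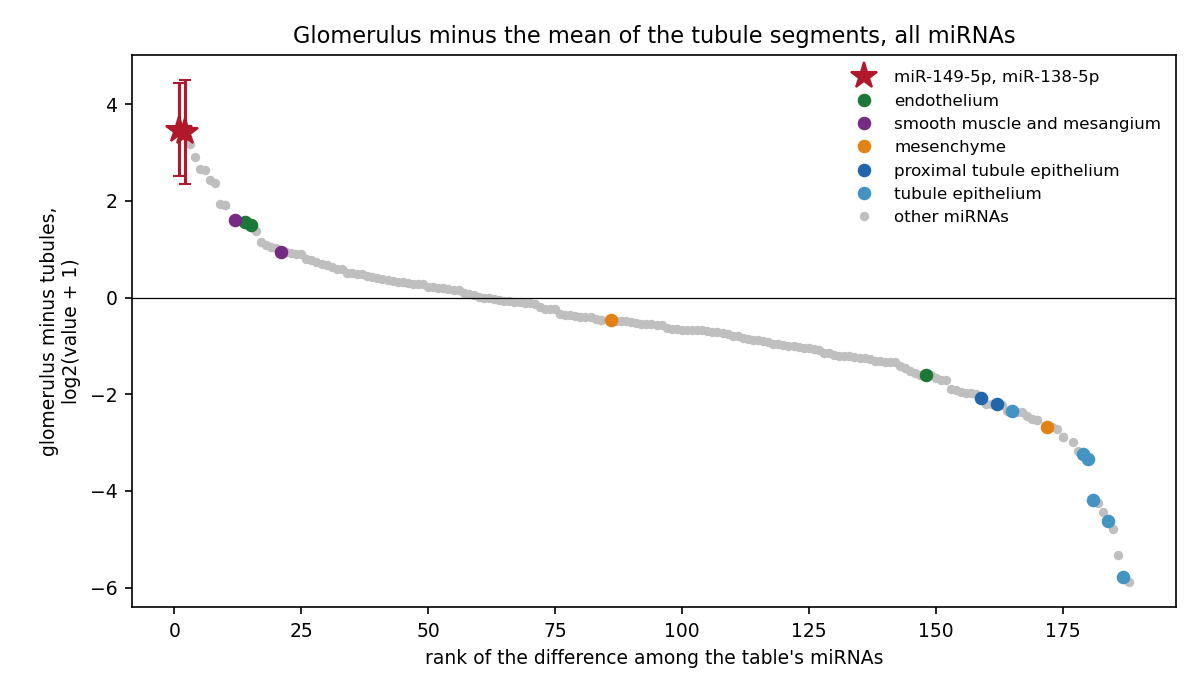
Glomerulus minus the mean of the tubule segments in log2(value + 1) (y axis) for all 188 miRNAs, ranked from highest to lowest (x axis). Stars with SE bars are miR-149-5p at 3.48 and miR-138-5p at 3.42, coloured points are miRNAs known from other cell types, and the tubule epithelial ones lie at the low end with a median of −3.77.

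In 13 of 188 miRNAs, 6.91%, both glomerulus libraries were above all 9 tubule libraries, and in 18, 9.57%, both were below. The members are among the 13 by the way they were chosen. Their lowest glomerulus value exceeded the highest tubule value by a factor of 3.32 for miR-149-5p and 3.10 for miR-138-5p, the widest of the 188. The other 11 were miR-338-3p, miR-351-5p, miR-184, miR-450a-5p, miR-195-5p, miR-23b-3p, miR-145-5p, miR-126a-5p, miR-23a-3p, miR-24-3p and miR-143-3p.

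Between tubule segments, whose contrasts with each other do not enter the glomerulus difference, neither member passed the test. The proximal tubule was the highest tubule segment for miR-149-5p in mean value, and the CD the lowest for miR-138-5p. The tests used limma on the 9 tubule libraries alone, with the rat as a block and Benjamini-Hochberg adjustment over 188 miRNAs, and 6 differences were examined, of which 1 had an unadjusted p below 0.05. By this test 20.7% of the 188 miRNAs differed between proximal tubule and TAL, 21.8% between proximal tubule and CD and 13.8% between TAL and CD. Here too the SE and interval rest on a variance shared by miRNAs of like abundance.

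For miR-149-5p the difference of proximal tubule minus TAL was 2.00 ± 0.99 (SE) on the log2 scale, with a 95% interval of 0.06 to 3.94 and an adjusted p of 0.144 by limma. It was positive in 3 of 3 rats. Across the alternatives its adjusted p ran from 0.0366, without a variance trend in limma, to 0.404. Proximal tubule minus CD was 1.71 ± 0.99, with an interval of −0.23 to 3.65 and an adjusted p of 0.227 by limma, and was also positive in 3 of 3 rats. Its adjusted p ran from 0.0470, again without the variance trend, to 0.451. Thick ascending limb minus CD was −0.29 ± 0.99, with an interval of −2.23 to 1.65 and an adjusted p of 0.889. All 3 intervals include differences of several fold.

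For miR-138-5p the values of proximal tubule and TAL were close, at 0.06 ± 1.09 with an interval of −2.07 to 2.199 and an adjusted p of 0.985 by limma. The sign of this difference turned without the TAL library of rat 2 (−0.84) and without that of the proximal tubule in rat 1 (−0.07) or in rat 2 (−0.29). Proximal tubule minus CD was 2.00 ± 1.09, with an interval of −0.14 to 4.13 and an adjusted p of 0.196. Thick ascending limb minus CD was 1.93 ± 1.09, with an interval of −0.20 to 4.07 and an adjusted p of 0.304. The CD libraries were all at 0 here, so both differences depend on the pseudocount. The 3 differences of a member share libraries and are not independent of each other.

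**Figure D5:**
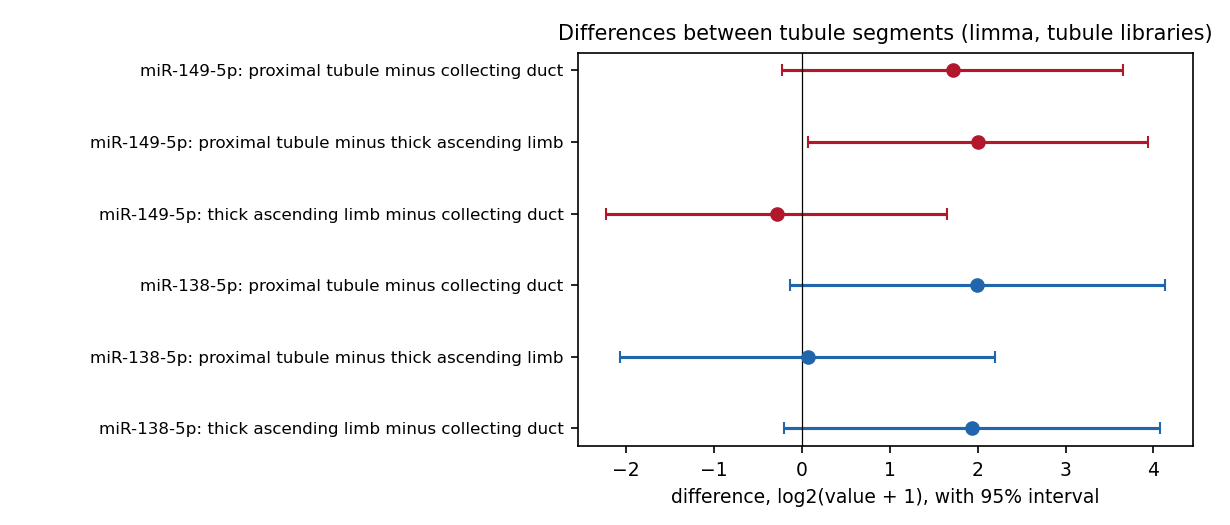
Differences between tubule segments in log2(value + 1) (x axis) for both members, with 95% intervals from limma on the 9 tubule libraries. The interval of miR-149-5p for proximal tubule minus TAL runs from 0.06 to 3.94, the other 5 intervals include 0, and none of the 6 passed after adjustment over 188 miRNAs.

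Rat 2 had the lowest miR-149-5p value in each of the 3 tubule segments, at 4.65, 0 and 0 in proximal tubule, TAL and CD. A miRNA with its rat 2 library lowest in all 3 was seen in 3 of 188, or 1.60%. By segment, rat 2 was lowest in 26.6% of miRNAs in the proximal tubule, 59.6% in the TAL and 9.57% in the CD. miR-138-5p was lowest in rat 2 in the proximal tubule and TAL, at 2.42 and 0, while all 3 CD libraries tied at 0. The zeros lay in libraries of 321577 and 788820 reads, the CD library of rat 2 being the deepest of its segment. What sets rat 2 apart was not tested, and there is no glomerulus library of that rat to set beside it.

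The 5 miRNAs with the profile most like each member over the 11 libraries were, besides the members, 7 in number. Over all 188 miRNAs, limma called 9, or 4.79%, higher in the glomerulus than in the tubules. Of the 7, it called 3 higher (miR-338-3p, miR-351-5p and miR-450a-5p). The other 4 did not pass, at adjusted p of 0.083 for miR-195-5p, 0.13 for miR-143-3p, 0.20 for miR-455-5p and 0.62 for let-7c-2-3p. Likeness over these libraries chose the 7, so these calls are not independent of the choice. For miR-149-5p, Pearson's r of log2(value + 1) was 0.78 with miR-138-5p, 0.75 with miR-143-3p, 0.73 with miR-338-3p, 0.70 with miR-450a-5p and 0.69 with miR-351-5p. For miR-138-5p the r was 0.83 with miR-195-5p, 0.78 with miR-149-5p, 0.75 with miR-338-3p, 0.74 with let-7c-2-3p and 0.73 with miR-455-5p. These values describe 11 points that share rats, flow cells and normalization and in which the glomerulus libraries stand apart. Over the 9 tubule libraries alone the r between the members was 0.45. Over the same 9 it was 0.28 for miR-149-5p with miR-143-3p, 0.38 with miR-338-3p, −0.0020 with miR-450a-5p and −0.12 with miR-351-5p. For miR-138-5p it was 0.63 with miR-195-5p, 0.39 with miR-338-3p, 0.74 with let-7c-2-3p and 0.62 with miR-455-5p.

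In level these companions spanned a wide range. miR-351-5p and miR-450a-5p, which belong to the X-linked cluster of miR-322 and miR-503 of rodents, were well above both members. miR-351-5p stood at 1999 and 1117 in the glomerulus of rats 1 and 3 and from 137 to 421 in the tubules, and miR-450a-5p at 334 and 170 against 21.4 to 76.9. miR-195-5p, of the miR-15/16 family, was at the level of miR-138-5p, with 28.6 and 20.5 in the glomerulus and 0 to 12.7 in the tubules. miR-455-5p had 13.3 and 7.77 in the glomerulus and 0 to 9.62 in the tubules, and miR-338-3p and miR-455-5p were both, like miR-138-5p, at 0 in all 3 CD libraries. let-7c-2-3p had 4.91 and 4.29 in the glomerulus and 0 to 11.2 in the tubules, so its groups overlapped. miR-143-3p, at 16324 and 10321 in the glomerulus and 4760 to 8072 in the tubules, was the most abundant of the companions.

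Lists of miRNAs known from other cell types were set beside the pair. The lists were chosen with earlier results of these data known, so the calls below are not independent of that choice. In limma on all 11 libraries, 9 of 188 miRNAs, 4.79%, were higher in glomerulus than in the tubules and 28, 14.9%, were lower, at an adjusted p below 0.05. Without the glomerulus library of rat 1 the numbers were 3 and 69, and without that of rat 3 they were 11 and 15. With equal totals they were 31 and 28.

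Of 3 endothelial miRNAs measured, 2 were higher in the glomerulus. Both are arms of miR-126a, so they are not independent of each other. The list's median difference was 1.50, which is that of miR-126a-3p, against −0.56 over all 188. miR-126a-5p stood at 5449 and 3997 in the glomerulus of rats 1 and 3 and from 1046 to 2858 in the tubules, a difference of 1.57 (adjusted p = 0.0054, limma). miR-126a-3p stood at 840 and 302 in the glomerulus and 112 to 313 in the tubules, a difference of 1.50 (adjusted p = 0.027), and its lowest glomerulus library lay within the tubule range. miR-221-3p stood at 26.1 and 0.483 in the glomerulus and 0 to 60.0 in the tubules, a difference in the other direction of −1.60 that did not pass (adjusted p = 0.18). It passed as lower without the glomerulus library of rat 1 (−4.66) or the proximal tubule library of rat 1 (−2.40), and its sign turned to 1.46 without the glomerulus library of rat 3. Without a variance trend in limma none of the 3 passed. miR-126a-3p passed under 14 of 24 alternatives, and it missed the threshold without the rat 1 library of any of the 4 segments, the rat 2 library of proximal tubule or the rat 3 library of CD, with adjusted p of up to 0.262. The list summed to 4299 to 6316 in the glomerulus and to 1189 to 3230 in the tubules.

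The smooth muscle and mesangial miRNAs miR-143-3p and miR-145-5p had a median difference of 1.28, and 0 of 2 passed as deposited. miR-145-5p stood at 64.0 and 60.9 in the glomerulus and 8.01 to 41.8 in the tubules (difference 1.61, adjusted p = 0.13, limma). Both passed under each of the other scalings (median of ratios, equal totals and quantile normalization). miR-143-3p also passed with no replicate block (0.96) and without the glomerulus library of rat 3 (1.41). Their summed value was 10382 to 16388 in the glomerulus and 4781 to 8080 in the tubules.

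The mesenchymal miR-199a-3p was lower in the glomerulus, at 43.3 and 5.68 against 34.8 to 132 in the tubules, a difference of −2.69 (adjusted p = 0.00033, limma). Without the glomerulus library of rat 3 it no longer passed, at −1.39 (adjusted p = 0.15). miR-199a-5p stood at 29.0 and 7.31 in the glomerulus and 5.21 to 47.5 in the tubules and did not pass (adjusted p = 0.77). Its sign turned to 0.15 under quantile normalization, 0.21 on flow cell B alone, 0.34 on flow cell C alone and 0.30 without the glomerulus library of rat 3. The third listed miRNA, miR-214-3p, and all 4 blood cell miRNAs (miR-451-5p, miR-144-3p, miR-486 and miR-223-3p) were not among the 188, so that blood in the capillary tuft was not gauged here.

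Of 2 proximal tubule miRNAs measured, both were lower in the glomerulus. miR-192-5p stood at 1414 and 761 in the glomerulus of rats 1 and 3 and at 20807 to 26006 in the proximal tubule. miR-194-5p stood at 10.1 and 15.8 in the glomerulus and at 233 to 360 in the proximal tubule. In the TAL and CD miR-192-5p stood at 1238 to 4246, a range that overlapped the glomerulus. Differences from the mean of the tubules were −2.09 (adjusted p = 7.0e-05, limma) and −2.21 (adjusted p = 0.0092). On flow cell D alone miR-194-5p no longer passed (adjusted p = 0.056, limma).

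Of 6 tubule epithelial miRNAs measured, from the miR-200 family and the miR-183/96/182 cluster, 5 were lower in the glomerulus, with a median difference of −3.77. miR-182 stood at 58.9 and 62.6 in the glomerulus of rats 1 and 3 and from 1385 to 14580 in the tubules, a difference of −5.79 (adjusted p = 2.5e-32, limma). miR-141-3p stood at 4.71 and 2.89 in the glomerulus and 6.85 to 418 in the tubules, a difference of −4.61 (adjusted p = 2.0e-10, limma). The smallness of these p rests on infinite prior degrees of freedom, with 2 glomerulus libraries. miR-96-5p was at 0 in both glomerulus libraries and 0 to 49.6 in the tubules, and it did not pass (adjusted p = 0.10, limma). It passed as lower with no replicate block (−2.91), on flow cell B alone (−3.04) and without the glomerulus library of rat 1 (−3.36). miR-200a-3p was at 34.1 in the glomerulus of rat 1 and at 0 in that of rat 3, and it no longer passed without the rat 3 library (adjusted p = 0.064). The list summed to 98.7 to 187 in the glomerulus and to 1888 to 16204 in the tubules. The part of any of these cell types in the levels of miR-149-5p and miR-138-5p was not tested.

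Of 10 miRNAs known from neurons, where miR-138-5p is best known, 2 were measured. miR-9a-5p was lower in the glomerulus, at 0.896 and 0 against 50.3 to 69.3 in the CD and 0.700 to 9.76 in the other tubule segments (difference −2.99, adjusted p = 0.022, limma). It no longer passed without the rat 3 library of glomerulus (−2.15). It also no longer passed without the rat 3 library of proximal tubule (adjusted p = 0.079, limma) or TAL (0.055). The same held on flow cell A alone (0.053) and on flow cell D alone (0.071). miR-132-3p stood at 18.6 and 0 in the glomerulus and 0 to 11.3 in the tubules, a difference of 1.58 that did not pass (adjusted p = 0.36). Leaving out the rat 1 glomerulus gave −1.13, and leaving out the rat 3 glomerulus gave 4.29, which passed (adjusted p = 0.049, limma).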

How the data were processed

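Small RNA libraries of 11 laser-captured kidney samples were read as 50 bp single ends on 4 flow cells, 44 runs in all. The deposited signal values were made by the authors by TMM normalization of read counts with low miRNAs filtered out, per the name of the deposited file. The submitters' processing notes name Bowtie 1.0.0, Bowtie2 2.2.5, Partek 6.0 and the rat build rn6, with roles not given in the sources used here.

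Reads were estimated from the spacing of low values: in each run 88.3% to 99.0% of values at or under 30 reads fell within 0.03 reads of a whole number, too few to recover every count, so no count test was run. Runs were averaged within a library, and n counts libraries, 1 for each rat and segment. limma 3.58.1 in R 4.3.3 (lmFit, eBayes with a variance trend) was fitted to mean log2(value + 1) of all 188 miRNAs, two-sided, with Benjamini-Hochberg adjustment at 0.05. It had 5 residual degrees of freedom with 11 libraries and 4 with the 9 of the tubules. The prior degrees of freedom were infinite, so that miRNAs of like abundance shared 1 variance. The code was tested on simulated data.

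The rat was a block, since its segments come from 1 animal. Library deviations from their segment's mean correlated with a median r of 0.07 for 15 same-rat pairs (−0.09 to 0.22). For 30 pairs of different rats the median r was −0.04. Deviations cancel out within a segment, so these medians are tied to each other. They cannot decide whether the block or the rat labels are right. With the block, the glomerulus difference rests on rats 1 and 3. Alternatives were other pseudocounts, scalings, a filter, no block, no trend, single flow cells and each library left out. Leaving out rat 2 was added after seeing the data.

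The members and the lists of other miRNAs were chosen with earlier results of these data known. Named miRNAs are the members, the 5 with the highest correlation to each, the listed ones, the next in rank and any of the table sharing 6 bases of a seed, of which there were 0. miR-24-3p and the other miRNAs named for groups that did not overlap (miR-184, miR-23a-3p and miR-23b-3p) lie outside this rule and were picked after their values were seen. Gene spans from RefSeq GRCr8 were used without their coordinates.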

Additional observations from a re-analysis of the deposited data

How the results depend on the processing

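The glomerulus difference kept its sign under every alternative for both members. The pair was chosen for high glomerulus values, so this sign and the ranks below are a description and lend the difference no support. For miR-149-5p it was 2.97 with a pseudocount of 5, 4.30 with no replicate block, 3.96 with median of ratios, 4.08 with equal totals and 4.34 with quantile normalization, and without single libraries it ran from 3.13 to 3.82. For miR-138-5p it was 2.25 with a pseudocount of 5. In the blocked fit of all 11 libraries the rat 2 tubule libraries do not enter the difference, since rat 2 has no glomerulus library here. They enter the unblocked value and the fits without a tubule library of rat 1 or rat 3. By rank of the difference miR-149-5p stayed within 1 to 3 in 24 alternatives and miR-138-5p within 1 to 5 in 23. Leaving out rat 2 therefore moves neither blocked difference. With a filter at a mean value of 10, miR-138-5p could not be fitted in the glomerulus comparison, nor either member in the tubules alone.

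Between tubule segments, the estimates for miR-149-5p passed only without the variance trend, at 2.00 against TAL (adjusted p = 0.037, limma) and 1.71 against CD (adjusted p = 0.047). The miR-138-5p difference of proximal tubule minus TAL turned to −0.11 with a pseudocount of 5, −0.14 with median of ratios, −0.018 with equal totals, −0.58 with quantile normalization, −0.69 on flow cell B alone and −0.77 without rat 2, and ran from −0.84 to 0.87 without single libraries; none of these passed.

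Over all 188 miRNAs the numbers reported were 9 higher and 28 lower in the glomerulus, 39 for proximal tubule against TAL, 41 for proximal tubule against CD and 26 for TAL against CD. Those higher in the glomerulus numbered 25 with median of ratios, 31 with equal totals, 25 with quantile normalization and 3 to 11 without single libraries. Those lower numbered 16 on flow cell D and 15 to 69 without single libraries. Proximal tubule against TAL gave 12 with no variance trend, 23 without rat 2 and 17 to 44 without single libraries. Proximal tubule against CD gave 63 with equal totals, 21 with no trend and 21 to 45 without single libraries. TAL against CD gave 11 with median of ratios, 14 with equal totals, 3 with quantile normalization, 2 with no trend, 13 without rat 2 and 10 to 31 without single libraries. The cause was not tested.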
